A study of Mus musculus with 12 samples.

Results

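Heart muscle answers adrenaline and noradrenaline through adrenergic receptors, and 9 genes of that response are described here: the receptor genes Adrb1, Adra1a and Adra1b, the receptor kinase genes Grk2 and Grk5, the adenylyl cyclase genes Adcy5 and Adcy6, and the phosphodiesterase genes Pde4d and Pde3a. They were taken by symbol, as families of receptors, receptor kinases, cyclases and phosphodiesterases, from the 78317 genes of the deposited table. All 9 were found and all 9 passed the filter on low counts, with 390 to 16550 reads per library. They were chosen by function, with the injured-sire against uninjured-sire fold changes and p-values of an earlier pass over these data known. Fold changes of these genes between the groups are therefore given as a description, with no test of the genes themselves.

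The libraries came from snap-frozen heart ventricle of 12 uninjured C57BL/6J mice. Of these, 6 were offspring of males whose hearts had been frozen locally (cryoinjury) on postnatal day 1 and 6 were offspring of uninjured males. The labels carry no transgene, drug or injury in the offspring, give both sexes in each group without saying which animal is which, and name no dam, sire or litter. A sex-linked score, of Y-linked genes minus Xist, is negative in females. It was negative in injured-sire replicates 12, 15 and 17 and uninjured-sire replicates 19 and 21, and positive in the others. The sexes were thus not balanced between the groups. Collection is labelled 3 wpp and, in the same line, adult. Replicate 16 of the injured-sire group is named in the labels as standing apart in a principal component analysis, so means and fold changes rest on 5 injured-sire and 6 uninjured-sire libraries, and its values are given beside them.

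As background, beta receptors couple through the stimulatory G protein to adenylyl cyclase, which makes cyclic AMP. Cyclic AMP activates protein kinase A, which phosphorylates calcium channels, phospholamban and sarcomere proteins, so that the heart beats faster and with more force. Alpha-1 receptors couple instead through the Gq family to phospholipase C. Receptor kinases phosphorylate receptors in use and so lead to arrestin binding and desensitisation, and phosphodiesterases break cyclic AMP down. In bulk tissue, fewer cells of a type and less RNA per cell cannot be told apart.

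Total counts ran from 30537315 to 42090257 per library. The summed level of 8 ventricular cardiomyocyte markers was 66775 to 76864 CPM (counts per 1e6 counts, scaled for library composition) in the uninjured-sire libraries and 69288 to 81284 in the 5 injured-sire libraries, and all 8 were detected in every library. Markers of other tissue were uneven. The sum of 5 airway and lung markers was 0.263 to 214 CPM in the uninjured-sire and 24.8 to 344 CPM in the injured-sire libraries, and 4 of the 5 were at 0 in at least 1 library. The sum of 6 fat markers was 37.0 to 330 against 108 to 434 CPM, and that of 5 smooth muscle markers was 571 to 904 against 953 to 1065 CPM, with no overlap. Replicate 16 had 0.432, 171 and 911 CPM for these sums.

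Of the 17130 genes tested, 18 (0.105%) passed the edgeR quasi-likelihood test after Benjamini-Hochberg adjustment at a threshold of 0.05. None of the 9 genes was among them, and 5 had an unadjusted p below 0.05 in edgeR, against 8.96% of all genes. The DESeq2 Wald test, which called 0.905% of genes, and limma voom, which called 0.123%, called none of the 9 either; with the filtering level of 0.1 that DESeq2 sets by default, the Wald test called 1, Pde4d. Since the genes were chosen with this comparison in view, nothing is read from these counts. The 9 fitted differences were all smaller than 1.5-fold. Grk5 had the lowest value of injured-sire relative to uninjured-sire offspring, at -0.32 on the log2 scale, and Pde4d the highest, 0.38. Of the 9 values 7 were negative, with a median of -0.07, beside a median of 0.0002 over all genes tested.

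**Figure D1:**
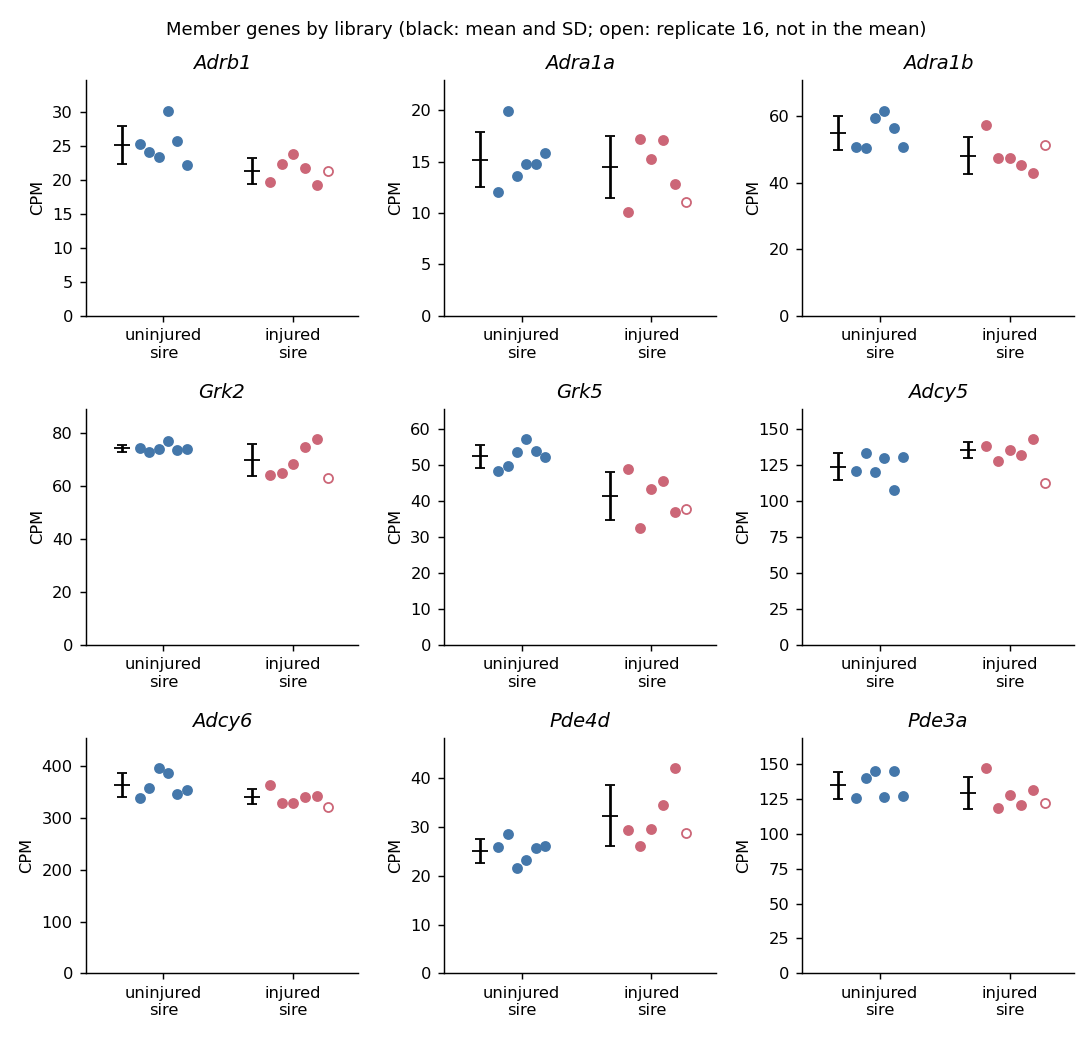
Level of each of the 9 genes in CPM (y axis, from 0) in every library by group; filled points are the libraries compared, the open point is replicate 16, and the black mark is the mean with its SD. Grk5 lies at 32.4 to 49.0 CPM in the 5 injured-sire libraries and at 48.3 to 57.2 in the uninjured-sire libraries. For Grk2 and Pde3a the injured-sire libraries reach both below and above the uninjured-sire range, with 3 of the 5 below it for Grk2.

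Adrb1 encodes the main beta receptor of cardiomyocytes (chromosome 19, 56710631 to 56721545, plus strand, GRCm39). It stood at 19.6, 22.3, 23.7, 21.7 and 19.1 CPM in injured-sire replicates 12, 13, 14, 15 and 17, and at 21.3 CPM in replicate 16. In the 6 uninjured-sire libraries the lowest value was 22.1, the median 24.6 and the highest 30.2 CPM. The groups overlapped, and 3 of the 5 injured-sire libraries lay under the whole uninjured-sire range. The means were 21.3 ± 1.92 CPM (SD, n = 5) and 25.1 ± 2.80 CPM (SD, n = 6), and the fitted log2 fold change was -0.22 ± 0.0847 (SE), with a 95% confidence interval of -0.39 to -0.04.

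The alpha-1 receptor genes Adra1b and Adra1a are given in turn, and a difference between them was not tested. Adra1b (chromosome 11, 43665433 to 43792037, minus strand) stood at 57.4, 47.2, 47.4, 45.4 and 42.9 CPM in the injured-sire libraries, in the order of replicates used above, and at 51.2 CPM in replicate 16. Its uninjured-sire libraries ran from 50.2 through a median of 53.6 to 61.6 CPM. Replicate 12 lay among the uninjured-sire libraries and the other 4 lay below all of them. The log2 fold change was -0.17 ± 0.0762 (SE), with an interval of -0.33 to -0.01.

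Adra1a (chromosome 14, 66872700 to 67008617, plus strand) encodes the alpha-1 receptor that is known for protective signalling in cardiomyocytes. Its values were 10.1, 17.2, 15.3, 17.1 and 12.8 CPM in the injured-sire libraries and 12.1 to 20.0 CPM, with a median of 14.8, in the uninjured-sire libraries. The groups lay over each other, at -0.05 ± 0.138 (log2 fold change, SE; interval -0.33 to 0.24). Of the 9 genes it was the most variable within groups, with a pooled SD of 0.28 in log2 CPM, beside a median of 0.16 over 2343 genes within 0.5 log2 CPM of its level.

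Grk5 (chromosome 19, 60878187 to 61084406, plus strand) encodes a membrane-bound receptor kinase that can also enter the nucleus and act on a histone deacetylase there. Injured-sire libraries had 49.0, 32.4, 43.4, 45.6 and 36.8 CPM and replicate 16 had 37.7. Uninjured-sire libraries had 48.3 to 57.2 CPM, with a median of 52.9. Overlap came from replicate 12 alone, which exceeded 1 uninjured-sire library; the other 4 and replicate 16 were under all of them. Means were 41.5 ± 6.75 (SD, n = 5) against 52.5 ± 3.17 CPM (SD, n = 6), and the log2 fold change was -0.32 ± 0.0861 (SE), with an interval of -0.50 to -0.14, or 0.800 of the uninjured-sire level. Without replicate 12 the value was -0.39, and without replicate 13 it was -0.25.

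Grk2 (chromosome 19, 4336029 to 4356250, minus strand) encodes the kinase best known for uncoupling beta receptors in heart failure. It stood at 64.0, 65.1, 68.2, 74.6 and 77.6 CPM in the injured-sire libraries, 63.0 in replicate 16, and 72.8 to 77.0 CPM in the uninjured-sire libraries, with a median of 73.9. The injured-sire libraries thus lay on both sides of a narrow uninjured-sire range. The SD was 5.98 CPM (n = 5) against 1.44 CPM (n = 6), and the log2 fold change was -0.07 ± 0.0579 (SE; interval -0.19 to 0.05).

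The promoter windows of Adrb1 and Grk5, the receptor gene and the kinase gene with the lowest log2 fold changes of the 9, are printed for comparison. They run 5′ to 3′ on the gene's strand, from 250 bases before the RefSeq start site to 50 after it, at chr19:56721867-56722166 and chr19:60889499-60889798 of GRCm38.p6, another build than the counts. Capitals mark TGACG, the first letters of the cAMP response element TGACGTCA.
Adrb1: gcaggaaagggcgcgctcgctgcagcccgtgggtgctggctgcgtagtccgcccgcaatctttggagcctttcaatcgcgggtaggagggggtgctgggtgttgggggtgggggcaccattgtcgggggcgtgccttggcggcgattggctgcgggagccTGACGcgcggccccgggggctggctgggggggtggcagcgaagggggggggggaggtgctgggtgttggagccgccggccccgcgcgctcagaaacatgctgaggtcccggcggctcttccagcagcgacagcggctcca
Grk5: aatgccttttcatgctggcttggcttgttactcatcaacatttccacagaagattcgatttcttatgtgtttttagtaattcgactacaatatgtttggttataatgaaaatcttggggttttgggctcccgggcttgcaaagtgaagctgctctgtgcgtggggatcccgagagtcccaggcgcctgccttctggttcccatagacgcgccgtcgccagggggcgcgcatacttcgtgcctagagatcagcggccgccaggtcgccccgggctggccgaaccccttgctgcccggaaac
Windows were at hand for 5 of the 9 genes, 6 windows in all, with 2 of Adra1b and 1 each of Adrb1, Grk5, Adcy5 and Pde4d. Searched on both strands were TGACGTCA, TGACG, which lies within it, the E-box CACGTG bound by clock proteins, the D-box TTATGTAA and the TATA box TATAAA. A single match was found, TGACG at position -90 of Adrb1. Over all 32851 windows of the table, TGACGTCA is in 1.79%, TGACG in 20.8%, CACGTG in 7.15%, TTATGTAA in 0.938% and TATAAA in 13.6%. GC content was 72.3% in the Adrb1 window and 54.3% in the Grk5 window, against a median of 52.7% over the table. A match is a string of letters, not a measured site.

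Adcy5 and Adcy6 encode the cyclases of cardiomyocytes, close relatives that are both inhibited by calcium. Adcy5 (chromosome 16, 34975247 to 35126108, plus strand) stood at 139, 128, 136, 132 and 143 CPM in the injured-sire libraries. Replicate 16 had 112 CPM, and the uninjured-sire libraries had 108 to 133 CPM, with a median of 126. All 5 injured-sire libraries were in or above the upper part of the uninjured-sire range, 3 of them above all of it. The log2 fold change was 0.15 ± 0.0580 (SE; interval 0.03 to 0.27), and 0.10 with replicate 16 included.

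Adcy6 (chromosome 15, 98487854 to 98507957, minus strand) was at 365, 328, 330, 340 and 343 CPM, with 322 in replicate 16, against 339 to 396 CPM and a median of 356 in the uninjured-sire libraries. The groups overlapped, at -0.07 ± 0.0529 (log2 fold change, SE; interval -0.18 to 0.04). Within each library the ratio of Adcy6 to Adcy5, per length, was 2.54 to 2.79 in the 5 injured-sire libraries and 2.84 to 3.50 in the uninjured-sire libraries. These ranges did not overlap, but replicate 16, at 3.03, lay inside the uninjured-sire range. Ratios of Grk2 to Grk5, Adra1b to Adra1a, Adra1b to Adrb1 and Pde3a to Pde4d were also computed, and each overlapped between the groups. How often ratios of other gene pairs separate the groups was not computed.

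Pde4d (chromosome 13, 108586482 to 110089995, plus strand) encodes a cAMP-specific phosphodiesterase that is held at beta receptors and at the ryanodine receptor. Injured-sire libraries had 29.3, 26.2, 29.6, 34.5 and 42.0 CPM, and replicate 16 had 28.7. Uninjured-sire libraries had 21.5 to 28.5 CPM, with a median of 25.7. Replicate 13 lay inside that range and the other 4 lay above it, replicate 17 furthest. Means were 32.3 ± 6.18 (SD, n = 5) against 25.1 ± 2.45 CPM (SD, n = 6), and the fitted difference was 0.38 ± 0.103 on the log2 scale (SE; interval 0.17 to 0.60), or 1.30-fold. Without replicate 17 it was 0.27. Pde4d has many transcripts that start at different promoters, and the count per gene does not tell them apart.

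Pde3a (chromosome 6, 141194995 to 141453174, plus strand) encodes the phosphodiesterase that cyclic GMP inhibits and that milrinone blocks. It was at 147, 118, 127, 121 and 132 CPM in the injured-sire libraries, 122 in replicate 16, and 125 to 145 CPM in the uninjured-sire libraries, with a median of 133. The groups lay over each other, at -0.04 ± 0.0637 (log2 fold change, SE; interval -0.18 to 0.09).

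**Figure D2:**
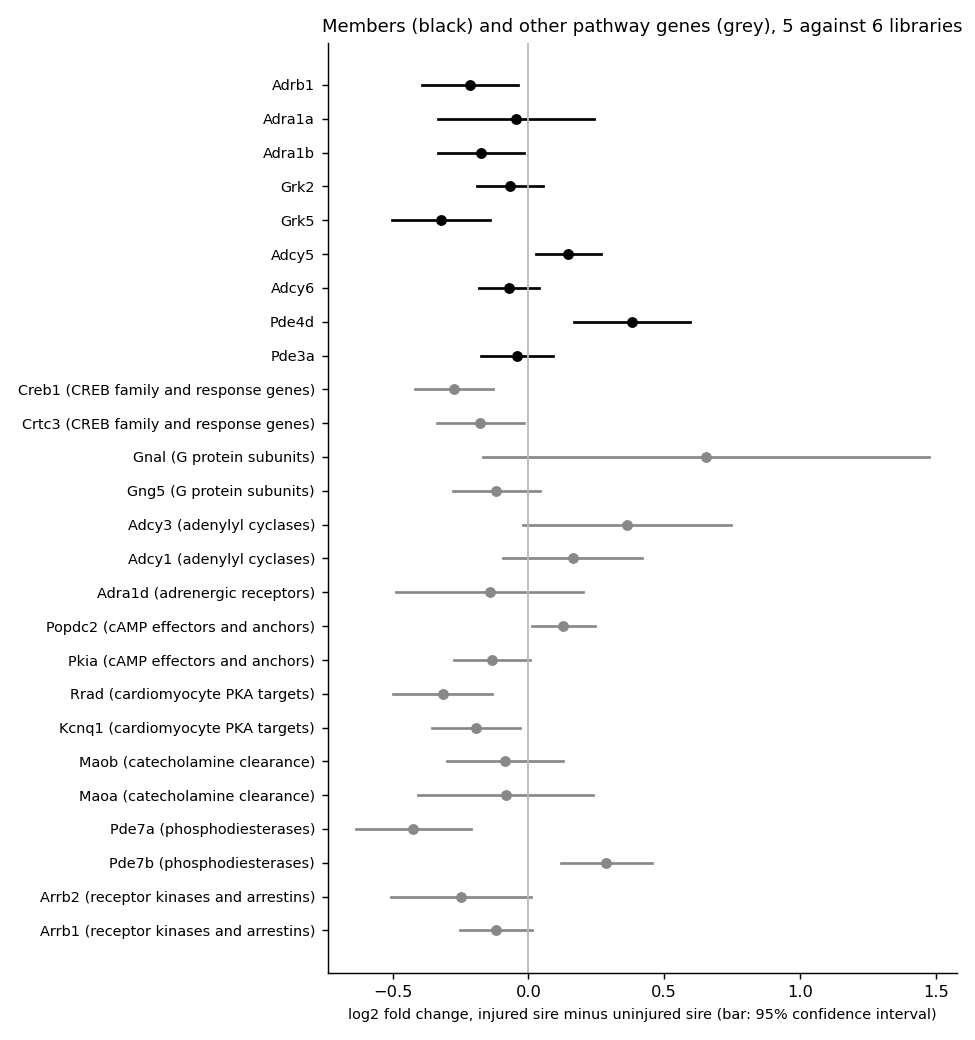
Fitted log2 fold change (x axis) with its 95% confidence interval for the 9 genes (black) and for other pathway genes, named with their list (grey), in 5 injured-sire against 6 uninjured-sire libraries. Of the 9 genes 4 have an interval that includes 0: Adra1a, Grk2, Adcy6 and Pde3a.

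Genes in several marker lists differed between the same groups. In smooth muscle Acta2, Myh11, Tagln, Cnn1 and Mylk were all higher in the injured-sire libraries, each with an unadjusted edgeR p below 0.05. Over all genes tested, 4.28% were higher and 4.68% lower at that level. Of 5 macrophage markers 4 were lower, Cx3cr1 (log2 fold change -0.71) and C1qa (-0.24) with an unadjusted edgeR p below 0.05, and their sum was 120 to 152 CPM in the uninjured-sire and 107 to 131 CPM in the injured-sire libraries. Of 5 atrial markers only Bmp10 was called, at 0.29 (edgeR adjusted p = 0.0243). The others were near 0, with Nppa at 0.06, Myl7 at 0.07, Myl4 at 0.06 and Sln at -0.05, none at an unadjusted p below 0.05. Among 5 fibroblast markers Dcn was lower (-0.15) and Col1a1 higher (0.18), and among 4 pericyte markers Kcnj8 was lower (-0.16). These 3 had an unadjusted edgeR p below 0.05. All 3 tested airway and all 6 fat markers were higher, with none at an unadjusted p below 0.05. When scores of airway and fat markers were covariates, the log2 fold changes were -0.36 for Grk5, -0.35 for Adrb1, -0.22 for Adra1b, 0.16 for Adcy5 and 0.46 for Pde4d. Adrb1 was thus 1.5 times or more as far from 0 as without them. A score of clock genes also differed between the groups. With it as a covariate the values, in the same order, were -0.39 ± 0.148, -0.29 ± 0.145, -0.22 ± 0.131, 0.29 ± 0.0906 and 0.56 ± 0.155 (SE). Each SE was larger than without the score, and the unadjusted edgeR p was 0.0617 for Adrb1 and 0.109 for Adra1b. The clock score was 1.09 to 2.74 in the 5 injured-sire and 0.139 to 1.85 in the uninjured-sire libraries. Score and group thus cannot be fully separated. The part of smooth muscle, macrophage, fibroblast, pericyte or atrial tissue in these values was not tested.

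Levels of different genes were compared per kilobase of merged exons, over all 12 libraries. Adcy6 stood highest, at 51.7 ± 3.38 CPM per kilobase (SD, n = 12), above Adcy5 (17.8 ± 1.46), Grk2 (15.97 ± 1.13), Adra1b (15.3 ± 1.73), Pde3a (10.3 ± 0.799), Adrb1 (6.86 ± 0.875), Grk5 (6.61 ± 1.09), Pde4d (2.37 ± 0.452) and Adra1a (1.67 ± 0.323). Grk2 and Adra1b kept this order in 7 of 12 libraries, as did Adrb1 and Grk5, and these neighbours did not differ beyond their spread. Adcy5 was above Grk2 in 11 of 12 libraries, with overlapping ranges, and Pde4d above Adra1a in all 12, also with overlapping ranges. The other neighbours did not overlap. Merged exons of Pde4d and Adra1a are far longer than the longest coding transcript of either in GENCODE M21, another annotation than that of the counts. When that transcript gave the length, Pde4d came to 6.76 and Adra1a to 3.40 CPM per kilobase, and Grk2 to 21.2, above Adcy5.

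Within its family, Adra1b took 52.0 ± 3.45% of the summed level of the 9 adrenergic receptor genes per kilobase, Adrb1 23.3% and Adra1a 5.70%. Grk2 took 47.8% and Grk5 19.7% of 5 receptor kinase genes, with Grk6 at 21.1%. Adcy6 and Adcy5 took 59.7% and 20.5% of 10 cyclase genes. Pde3a took 20.9% and Pde4d 4.80% of the 16 phosphodiesterase genes whose enzymes act on cyclic AMP, and Pde4a, at 17.4%, lay next to Pde3a. These shares use merged exon length, which for Pde4d is 12006 bases against 4207 for its longest coding transcript. Shares with another length were not computed, so the place of a gene in its family may depend on this choice.

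Shares of a family need no scaling between libraries. The share of Grk5 among receptor kinases was 18.2 ± 2.62% (SD, n = 5) in the injured-sire and 21.2 ± 0.983% (SD, n = 6) in the uninjured-sire libraries, with 17.9% in replicate 16. For Pde4d the shares were 5.41 ± 0.747% and 4.21 ± 0.523%, and for Adcy5 21.7 ± 0.620% and 19.6 ± 1.36%. Replicate 16 had 5.29% for Pde4d. For Adcy5 it had 20.1%, below the injured-sire range of 21.0 to 22.7% and inside the uninjured-sire range of 17.8 to 21.1%. Adrb1 took 22.6 ± 1.88% of receptor transcripts in the injured-sire and 23.9 ± 1.28% in the uninjured-sire libraries, a difference smaller than the SD of the injured-sire libraries. The summed level of the receptor family was 27.9 ± 1.48 against 30.9 ± 2.68 CPM per kilobase.

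**Figure D3:**
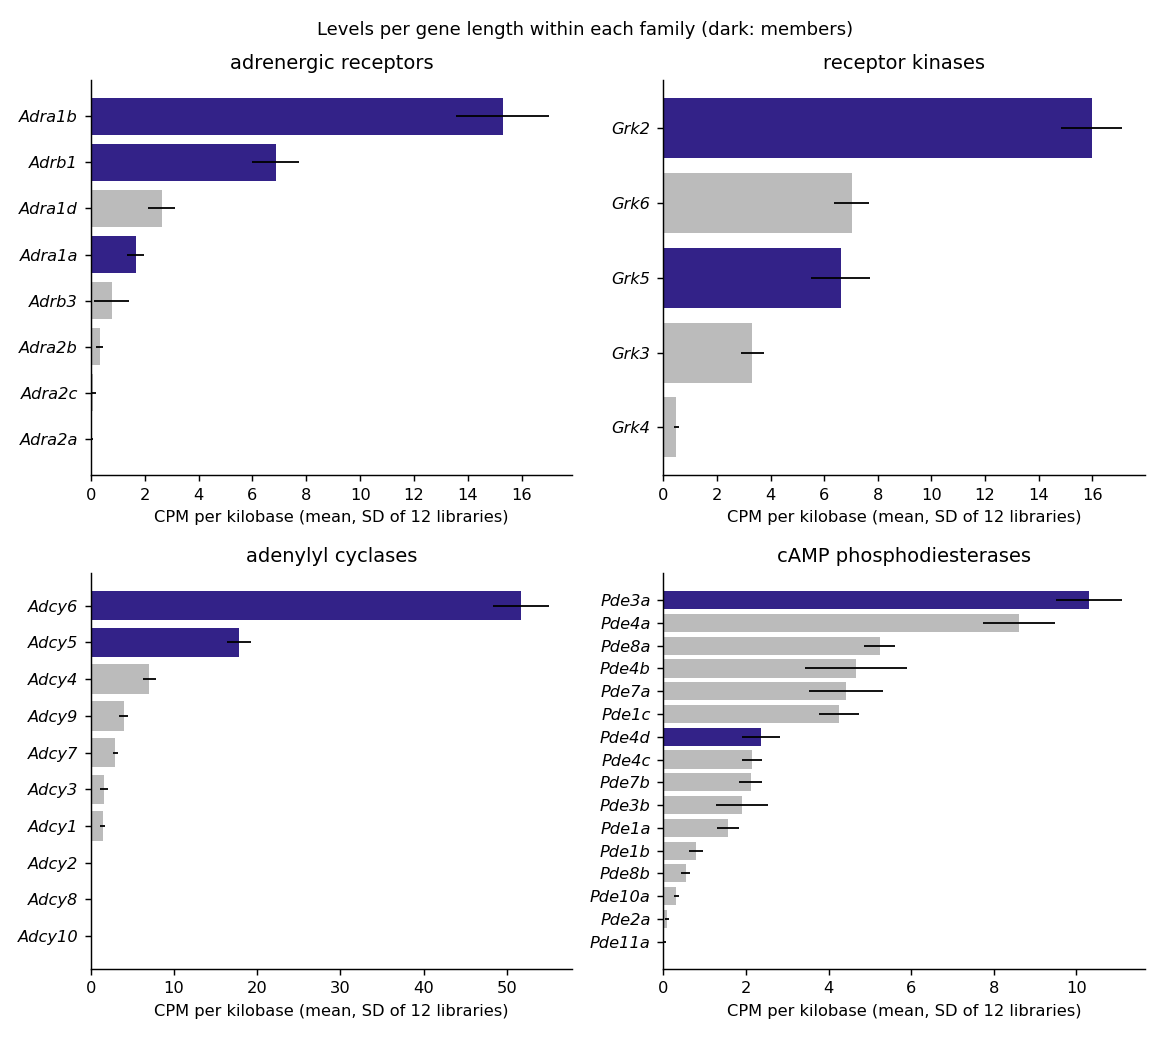
Mean level per gene length (x axis, CPM per kilobase of merged exons, from 0) with SD over 12 libraries for genes of the receptor, receptor kinase, adenylyl cyclase and cAMP phosphodiesterase families; dark bars are the 9 genes described. By merged exon length, Adra1b, Grk2, Adcy6 and Pde3a lead their families, and Pde4d is in the middle of its own.

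The comparison between groups plays no part in how the genes varied among mice of the same group. After each group's mean was taken away from log2 CPM, Pearson's r and Spearman's rho were computed for the 36 pairs over 11 libraries. No pair passed after adjustment over the 36, the smallest adjusted p being 0.525 for r and 0.215 for rho (permutation within groups). The pair with the smallest unadjusted p for r was Adra1b and Adcy6 (r = 0.71, p = 0.0227; rho = 0.35, p = 0.299, permutation). Its r was 0.45 without the 2 libraries farthest from the median of Adra1b. Grk2 and Pde4d had r = 0.70 (permutation p = 0.0729), but r was 0.93 in the injured-sire and -0.53 in the uninjured-sire libraries. A value over both groups can thus hide opposite relations. Adra1b and Pde4d, the pair with the smallest unadjusted p for rho, had r = -0.66 (p = 0.0480) and rho = -0.80 (p = 0.00598, permutation), and r = -0.74 without the 2 farthest. Grk5 and Pde4d, at opposite ends of the fold changes, had an r of -0.08 within groups (permutation p = 0.869; rho = -0.17, permutation p = 0.664), and r = -0.61 without the 2 libraries farthest from the median of Grk5. With no scaling factor 1 pair passed for rho, Grk5 and Adcy6 (rho = 0.70, adjusted permutation p = 0.0443), which with TMM scaling had rho = 0.44 and an adjusted permutation p of 0.733.

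**Figure D4:**
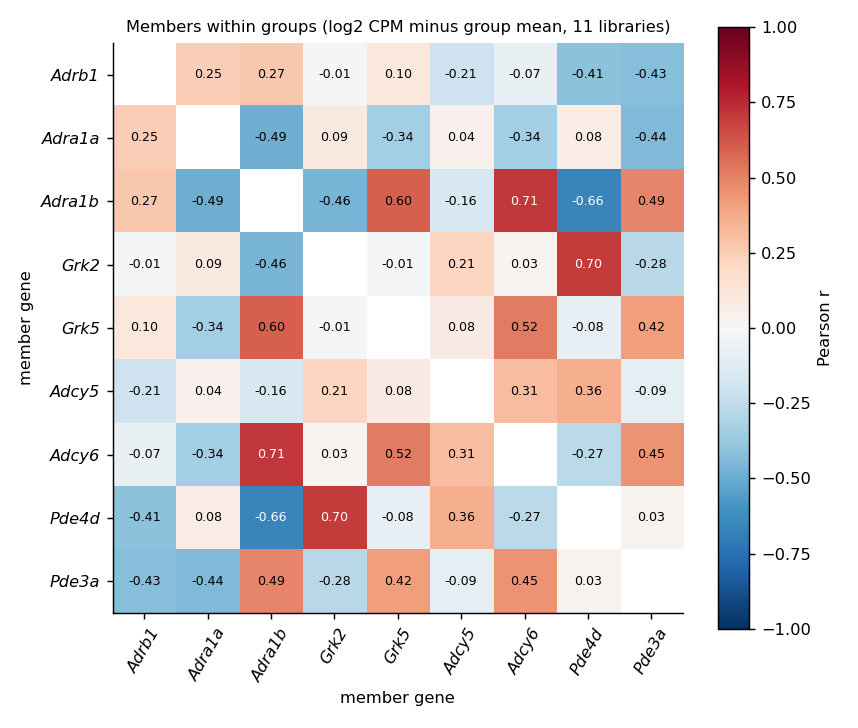
Pearson r between each pair of the 9 genes across 11 libraries (colour and printed value), from log2 CPM with each group's mean subtracted. Adra1b with Adcy6 (0.71), Grk2 with Pde4d (0.70) and Adra1b with Pde4d (-0.66) are among the strongest, and none passed after adjustment.

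Genes most like Grk5 in the same group-centred values, among 9198 named genes at a level of at least 3 log2 CPM, were Thbs3 (r = 0.94, rho = 0.94), Iqce (0.92, 0.82) and Setdb1 (0.90, 0.94), and the most opposite were Uqcc1 (-0.94, -0.95) and Nol7 (-0.91, -0.82). For Adrb1 they were Qtrt2 (r = 0.93, rho = 0.92), Creb3 (0.83, 0.75) and Vps54 (0.82, 0.81), and most opposite Cpped1 (-0.90, -0.83) and Psmf1 (-0.86, -0.82). These are the extremes of a long ranking over 11 libraries, and are given as a description. The libraries differed in total counts and in markers of other tissue.

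Of 103 other genes of the pathway, in 9 lists, 99 were tested. None passed the edgeR test after adjustment, 4 higher and 5 lower had an unadjusted p below 0.05 (4.28% and 4.68% of all genes), and their median log2 fold change was -0.005. DESeq2 called 3 of them and limma voom 0. Adra1d, the remaining alpha-1 receptor gene, was at -0.14 ± 0.166 (log2 fold change, SE).

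The nearest relatives of the kinases and phosphodiesterases were also read. Of 5 further kinase and arrestin genes 4 were negative, with Arrb2 at -0.25 ± 0.124 and Arrb1 at -0.12 ± 0.0637 (log2 fold change, SE), the 2 arrestins that bind phosphorylated receptors. Of 15 further phosphodiesterase genes 6 were positive and 9 negative. Pde7a, whose enzyme is specific for cyclic AMP, had means of 28.9 ± 4.43 (SD, n = 5) and 39.2 ± 5.32 CPM (SD, n = 6). Its log2 fold change was -0.42 ± 0.101 (SE), with an edgeR adjusted p of 0.129. Its paralog Pde7b was at 28.7 ± 2.23 against 23.8 ± 2.49 CPM (0.29 ± 0.0812, edgeR adjusted p = 0.216), and its groups did not overlap, which held for 1.22% of all genes tested. Pde7a was called with the DESeq2 Wald test, with no filter and without injured-sire replicate 17, where the log2 fold change was -0.52.

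Among 12 cardiomyocyte proteins that protein kinase A acts on, directly or through the channel complex, 6 genes were positive and 6 negative. Rrad, which encodes the small GTPase through which protein kinase A releases the L-type calcium channel, had means of 142 ± 10.6 (SD, n = 5) and 179 ± 27.1 CPM (SD, n = 6). The difference was -0.32 ± 0.0864 on the log2 scale (SE), with an edgeR adjusted p of 0.216. It was called with the DESeq2 Wald test, with no filter, and with airway and fat scores as covariates, where the value was -0.53. Kcnq1, a repolarising potassium channel gene, was at -0.19 ± 0.0781. Creb1, the transcription factor activated by protein kinase A, had means of 25.3 ± 1.65 (SD, n = 5) and 31.0 ± 1.55 CPM (SD, n = 6), without overlap, and -0.27 ± 0.0688 on the log2 scale (SE; edgeR adjusted p = 0.154). Replicate 16 had 28.3 CPM of Creb1, just under the lowest uninjured-sire value of 28.7, and DESeq2 called it. Its coactivator gene Crtc3 was at -0.18 ± 0.0775. Of the 13 genes of the CREB family and its response genes, 7 were positive and 6 negative, with a median log2 fold change of 0.03. The highest values, named after they were seen, were those of the response genes Nr4a2 (0.88 ± 0.651), Sik1 (0.63 ± 0.504), Nr4a1 (0.52 ± 0.614) and Nr4a3 (0.47 ± 0.469). The lowest was that of another response gene, Fos (-0.45 ± 0.577), and the response gene Ppargc1a was also negative (-0.25 ± 0.163). Each of these genes had an interval that includes 0.

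The remaining lists lay close to 0. Medians were 0.02 for 17 G protein subunit genes, with Gnal at 0.65 ± 0.395 and Gng5 at -0.12 ± 0.0770 (log2 fold change, SE), and 0.02 for 21 cyclic AMP effectors and anchors, with Popdc2 at 0.13 ± 0.0563 and the kinase inhibitor Pkia at -0.13 ± 0.0671. The 7 further cyclase genes had a median of 0.08, with Adcy3 at 0.36 ± 0.182 and Adcy1 at 0.16 ± 0.122, and the 4 tested catecholamine clearance genes one of -0.05, with Maob at -0.09 ± 0.102 and Maoa at -0.08 ± 0.155.

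**Figure D5:**
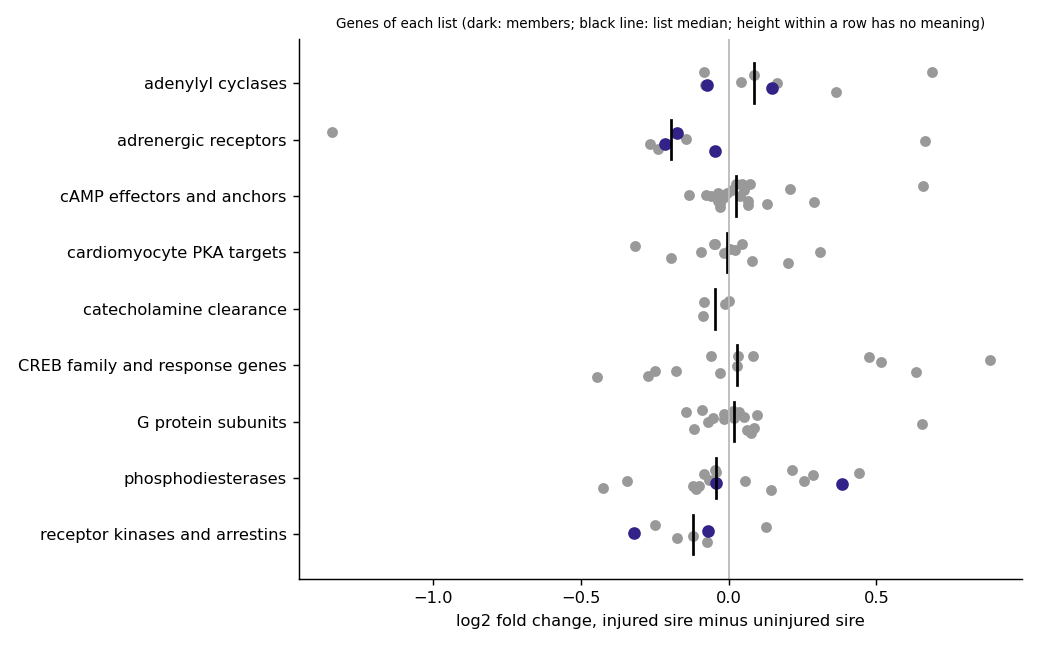
Log2 fold change (x axis, injured-sire minus uninjured-sire) of every tested gene of the 9 lists (rows), with the 9 genes described as dark points and each list's median, the 9 genes included, as a black line. Medians run from -0.19 for adrenergic receptors to 0.08 for adenylyl cyclases.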

How the data were processed

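RNA of 12 heart ventricle libraries was compared. The deposited values are raw read counts per Ensembl gene, counted by the authors with featureCounts 2.1.1, strand setting 2, without multi-mapping reads, on Ensembl release 114 of GRCm39, per the file headers. STAR 2.7.10a is named in the submitters' processing notes. The table holds 11 more sample columns, of samples not described here, which no step read. Gene lengths are the merged exon lengths deposited in the same file. Of 78317 gene IDs, 51487 were matched to GENCODE M21 symbols. Promoter windows are from RefSeq on GRCm38.p6.

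Groups were compared with edgeR 4.0.16 (R 4.3.3). Genes were kept by filterByExpr at a minimum count of 10 and a total of 15, libraries were scaled by TMM, and p-values of the two-sided robust quasi-likelihood test were adjusted after Benjamini-Hochberg over 17130 genes. SEs come from the F statistic. CPM use TMM factors of all 12 libraries per 1e6 counts; a prior count of 2 was added for log2 CPM. Correlations used 100000 permutations within groups. Library pairs within a group differed beyond counting noise, with a chi-square of 14.3 to 45.4 per degree of freedom over 30 pairs. Nothing in the labels says that the mice came from separate litters, so p-values measure only the spread between these mice.

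The genes and lists were chosen with earlier results of these data known. Besides the 9 genes, the text names the 2 genes of each list with the smallest p whose mean log2 CPM is 0 or more, and for Grk5 and Adrb1 the 3 most like and 2 most opposite genes. A gene that the rule names is not reported here. Alternatives were all 12 libraries, each library left out, DESeq2 1.42.0 size factors and Wald test (independent filtering at 0.05, and at 0.1 as an alternative added later), no scaling factor, upper-quartile factors, limma 3.58.1 voom with quality weights, no filter on low counts, one of 1 CPM in 5 libraries, and sex-linked, clock, or airway and fat scores as covariates. In counts simulated for this comparison of 17130 genes, a change of 1.25-fold was called for 13 of 50 genes and one of 1.5-fold for 26 of 50. Unchanged genes were called 6 times, so differences of the size described here are often missed. The simulation called 134 genes in all, against 18 in the comparison itself. Its adjusted threshold was thus less strict, and recovery in these data may be lower.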

Additional observations from a re-analysis of the deposited data

Results flagged for a closer look

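Each group of 6 libraries of each of the 9 genes was checked for a library far from the others, 18 groups in all, of which chance alone marks about 1 in 20. A single group was marked. Uninjured-sire replicate 21 had Grk2 at 77.0 CPM and the next highest library 74.3 CPM, a gap of 0.641 of the group's whole range. That range is narrow, from 72.8 to 77.0 CPM, and without replicate 21 the log2 fold change of Grk2 was -0.06.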

How the results depend on the processing

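Over 23 alternative settings, Adrb1, Adra1b, Grk5, Adcy5 and Pde4d kept the sign of their log2 fold change in all, and the other 4 genes did not in some. With the sex-linked score as covariate, the values were -0.21 for Adrb1, -0.19 for Adra1b, -0.35 for Grk5, 0.13 for Adcy5 and 0.33 for Pde4d. That setting called 14 genes. With the clock score as covariate Grk2 was at 0.039 and Adcy6 at 0.010, and with airway and fat scores Adra1a was at 0.039 and Pde3a at 0.033; the cause was not tested. With 1 library left out, Adra1a ran from -0.12 to 0.057. Its sign changed without injured-sire replicate 12 (0.057) and without uninjured-sire replicate 19 (0.047). With no filter Pde4d (0.36) and Grk5 (-0.34) were called; the cause was not tested. The DESeq2 filtering level of 0.1, an alternative chosen after seeing the data, called 130 genes, 3 other pathway genes and Pde4d (0.38), whose adjusted Wald p was 0.0492 against 0.0522 at a level of 0.05; it left 3986 genes without an adjusted p. The number of genes called was 134 with the DESeq2 Wald test, 236 with no filter, 28 with the 1 CPM filter and 0 with the clock score (edgeR, with 937 at an unadjusted p below 0.05), against 18. It ran from 8 to 43 with 1 library left out: leaving out injured-sire replicate 12, 13 or 14 gave 28, 8 or 9, and leaving out uninjured-sire replicate 22 or 23 gave 43 or 9. Of the other pathway genes, the Wald test called 3, no filter 2, airway and fat scores 1, and leaving out 1 library 0 to 1, that 1 without injured-sire replicate 17. The split of 9 higher and 9 lower genes became 17 and 8 with no scaling factor and 7 and 12 with upper-quartile factors. DESeq2 left 2326 genes without an adjusted p, none of them among the 9. With the longest coding transcript as length, Adrb1 came to 7.86, Adra1a to 3.40, Grk2 to 21.2, Adcy6 to 58.1 and Pde4d to 6.76 CPM per kilobase. By Pearson's r no correlation among the 9 genes passed with all 12 libraries or with no scaling factor. By Spearman's rho none passed with all 12 libraries and 1 passed with no scaling factor, Grk5 with Adcy6 (rho = 0.70, adjusted permutation p = 0.0443, against 0.44 and 0.733 with TMM scaling); the cause was not tested. No share moved by more than its SD with replicate 16 included. No paired analysis was possible because the groups share no replicate number. Each of the 9 genes had at least 390 reads in every library. The median half-width of a confidence interval over all genes tested was 0.26 on the log2 scale.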
